A study of Mus musculus with 10 samples.

Results

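The genes of the pentose phosphate pathway were described in CD8+ T cells kept together with mouse breast cancer cells of the 4T1 line, without or with sodium acetate. They were 9 of the 57825 genes measured and were chosen by name: G6pdx, Pgls, Pgd, Rpia, Rpe, Tkt, Taldo1, Prps1 and Prps2. Each name was listed once, and all 9 passed the filter on low values. The control group held 5 samples of spleen CD8+ T cells from female Balb/c mice, activated for 12 h with plate-bound anti-CD3, anti-CD28 and IL-2 and then co-cultured for 48 h. The acetate group held 5 samples of the same kind that also received 5 mM sodium acetate, given for 24 h before the co-culture according to the methods. The labels give day 3 for both groups, and every sample of both groups had met the tumor cells. According to the methods the RNA came from purified T cells, but markers of epithelial cells were also found, more so in the acetate group (below). Neither the labels nor the methods say whether the 5 samples of a group came from separate mice or cultures, so the p-values measure only the spread between these samples.

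The pentose phosphate pathway branches from glycolysis at glucose 6-phosphate. Its oxidative arm makes NADPH, which is spent on lipid synthesis and on keeping glutathione and thioredoxin reduced, and ends in ribulose 5-phosphate. The non-oxidative arm turns ribulose 5-phosphate into ribose 5-phosphate and exchanges pentose phosphates with glycolytic sugars in both directions. Ribose 5-phosphate is activated to phosphoribosyl pyrophosphate (PRPP), from which dividing T cells build nucleotides and NAD.

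The isomerase Rpia and the epimerase Rpe, the enzymes that handle ribulose 5-phosphate, fell in the acetate group, Rpia to 0.654 and Rpe to 0.819 times its mean control level on the deposited scale. The 3 genes of the oxidative arm, the carbon-exchanging enzymes Tkt and Taldo1 and both PRPP synthetases did not pass the test on this scale. This balance depends on the scale: with samples rescaled to the same FPKM total, 6 of the 9 enzymes were higher and 1, Rpia, was lower, against 31.2% and 8.80% of all genes, and Rpe lost its call (limma adjusted p = 0.0937), while median-ratio scaling gave 0 higher and 2 lower as on the deposited scale. In all, on the deposited scale, 2 of the 9 enzymes differed between the groups at an adjusted p under 0.05 (limma, a linear model that steadies each gene's variance by that of the others, with Benjamini-Hochberg adjustment over all 15710 genes tested), against 36.5% of all genes tested. Of these 2, 0 were higher and 2 were lower, against 17.6% of all genes called higher and 19.0% called lower. The median log2 fold change was 0.12 over the 9 enzymes and -0.02 over all genes tested. Levels are given as FPKM, sequenced fragments scaled by the length of the gene and the depth of the sample, and fold changes are on the log2(FPKM + 0.1) scale. In bulk RNA, fewer cells of a type and less RNA per cell cannot be told apart.

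Replicate 1 was often the lowest sample of its group, in the acetate group for 8 of the 9 enzymes, Rpe being the exception, and in the control group for 5, G6pdx, Pgls, Pgd, Tkt and Taldo1. Without acetate replicate 1, 7 of the 9 enzymes passed the test, 5 higher and 2 lower, against 44.3% of all genes, 21.6% higher and 22.7% lower. The sequencing depth to which the FPKM refer was between 16306447 and 18853726 fragments per sample, and each enzyme had between 303 and 5188 fragments in a sample. The listed genes took up 95.5% to 97.9% of these fragments in control samples but 89.8% to 92.1% in acetate samples. Acetate replicate 1 had 20233 genes above 0 FPKM, against a group median of 24685, and control replicate 1 had 22291, against a group median of 23892.

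All 10 T cell markers were present in every sample, with Cd8a at 78.6 FPKM in the control and 76.5 FPKM in the acetate group. Of these markers, 6 of 10 were lower in the acetate group and 0 higher on the deposited scale (4 lower and 3 higher when rescaled to the same FPKM total), beside 19.0% of all genes lower and 17.6% higher (8.80% and 31.2%). Their sum ranged from 901 to 1008 FPKM in the control and from 818 to 932 FPKM in the acetate group. Markers of epithelial cells, from which 4T1 derives, moved as well: 7 of the 11 tested of a list of 18 were higher and 0 lower, though Krt7 and Cldn3 passed the filter on low values only through the acetate group. Their sum was 30.9 to 43.7 FPKM in control and 110.8 to 258.4 FPKM in acetate samples, and 0 of the 18 were at 0 in every sample. Cd4, which marks helper T cells, was at 0.541 FPKM in the control and 1.601 FPKM in the acetate group (log2 fold change 1.44, limma adjusted p = 0.000317), and it was the only gene tested of its list. Of 6 myeloid markers, 3 were tested and 1, Lyz2, was higher (0.536 and 1.12 FPKM), while the most abundant, Cd68, was at 25.8 and 22.8 FPKM (log2 fold change -0.17, adjusted p = 0.133) and the summed level was 25.1 to 34.4 FPKM in control and 25.9 to 29.8 FPKM in acetate samples. In acetate replicates 1 to 5 the epithelial marker sum was 112.5, 258.4, 163.9, 191.1 and 110.8 FPKM. In the same samples the sum of the 9 enzymes was 207.1, 262.0, 250.7, 256.9 and 258.0 FPKM. That of the oxidative arm was 62.2, 82.4, 74.2, 78.6 and 75.2 FPKM. Tkt was at 21.8, 37.4, 35.3, 36.0 and 35.4 FPKM, and H6pd, a relative of G6pdx, at 6.07, 7.72, 6.74, 8.69 and 6.15 FPKM. The part of these markers, of acetate replicate 1 and of the share of fragments in listed genes in the results below was not tested.

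**Figure D1:**
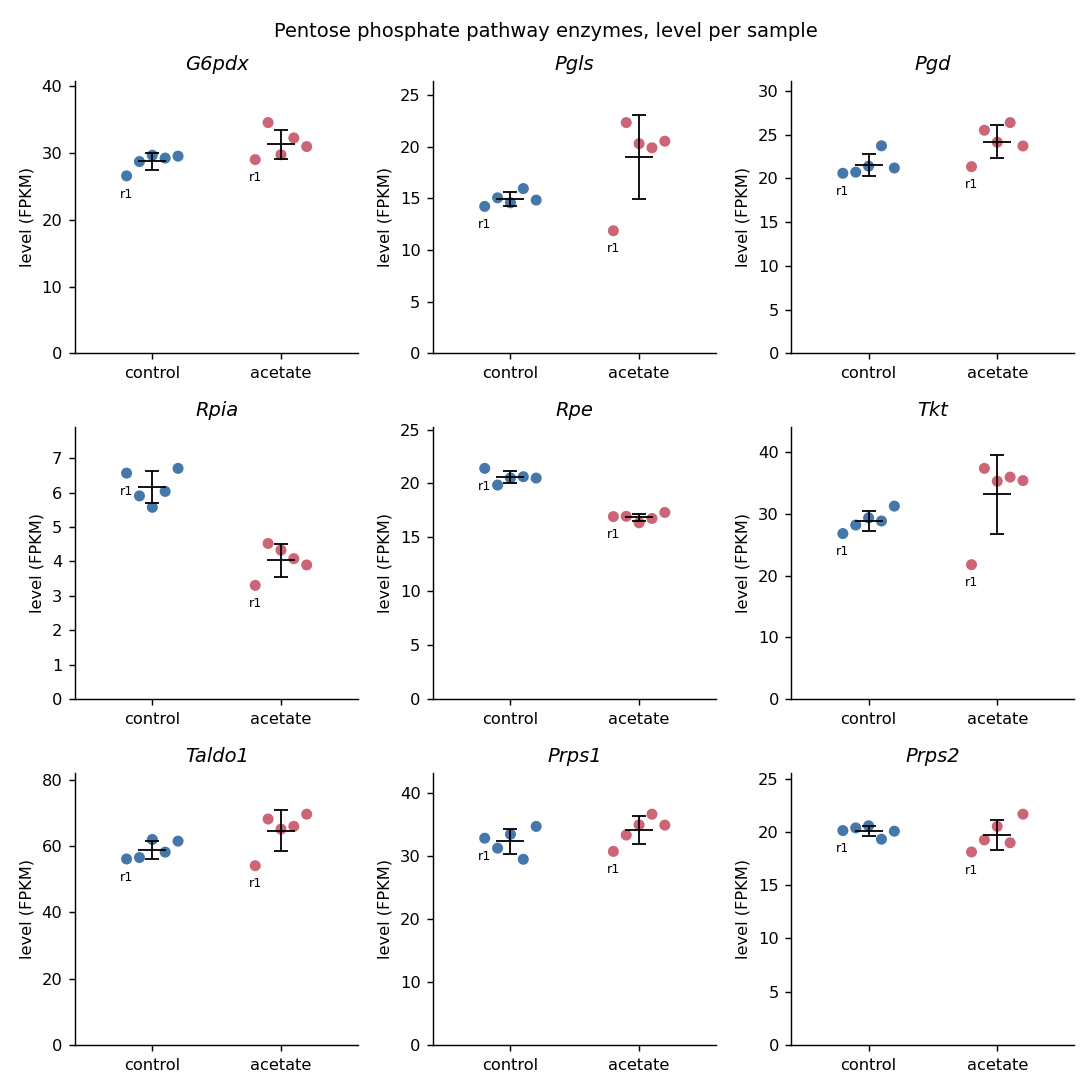
Level of each enzyme in FPKM in each of the 10 samples, with 1 panel per gene and an axis that starts at 0; points are samples (r1 marks replicate 1), bars the mean and SD of a group of 5. The acetate samples lie below all control samples for Rpia and Rpe, and acetate replicate 1 lies apart at the bottom of its group for Pgls and Tkt.

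The oxidative arm opens with G6pdx, the glucose-6-phosphate dehydrogenase that makes the first NADPH (chromosome X, 73453089 to 73472800, minus strand, as the deposited table lists it). G6pdx was at 26.6, 28.7, 29.7, 29.2 and 29.5 FPKM in control replicates 1 to 5, and at 29.0, 34.6, 29.7, 32.3 and 31.0 FPKM in acetate replicates 1 to 5. The groups overlapped only through acetate replicate 1, since the other 4 acetate samples lay above every control sample, replicate 3 by less than 0.1 FPKM. Its log2 fold change was 0.12 (SE 0.06, 95% confidence interval -0.0033 to 0.25, limma adjusted p = 0.117). Without acetate replicate 1 it was 0.15 with an adjusted p of 0.0441, at the same FPKM total 0.30 (adjusted p = 0.00071) and scaled to T cell markers 0.32 (adjusted p = 0.00196). The gene overlaps Ikbkg on the other strand over all its 19712 bases, and 2.25% of the 75-base windows of its transcript are shared with Ikbkg, which was at 8.76 FPKM in the control and 9.05 FPKM in the acetate group.

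Pgls, the lactonase that opens the ring of the first product (chromosome 8, 72044820 to 72053736, plus strand), had the largest difference of the oxidative arm, with the widest spread in the acetate group and the narrowest in the control. Its level was 14.2, 15.1, 14.6, 15.95 and 14.8 FPKM in control replicates 1 to 5. In acetate replicates 1 to 5 it was 11.9, 22.3, 20.3, 19.9 and 20.5 FPKM, so that 1 acetate sample lay below all controls and 4 lay above them. Acetate replicate 1 stood at 58.1% of the median of the others. For Pgls the log2 fold change was 0.31 over all samples (SE 0.15, limma adjusted p = 0.120) and 0.47 without acetate replicate 1 (SE 0.05, adjusted p = 5.9e-05). At the same FPKM total it was 0.49 (adjusted p = 0.016), and scaled to T cell markers 0.51 (adjusted p = 0.011). The gene overlaps Niban3 on the same strand over 3445 bases, and Niban3 was at 2.98 FPKM in the control and 2.34 FPKM in the acetate group.

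Pgd, the 6-phosphogluconate dehydrogenase that makes the second NADPH and releases ribulose 5-phosphate (chromosome 4, 149234448 to 149251228, minus strand), came closest to the threshold of the 7 enzymes that missed it. It was at 20.6, 20.7, 21.4, 23.7 and 21.2 FPKM in control replicates 1 to 5 and at 21.3, 25.5, 24.1, 26.4 and 23.7 FPKM in acetate replicates 1 to 5. The groups overlapped, since acetate replicate 1 lay below control replicates 3 and 4, and acetate replicate 5 lay just below control replicate 4. Control replicate 4 stood apart above the other controls. Over all samples the log2 fold change of Pgd was 0.17 (SE 0.06, limma adjusted p = 0.0639). It was 0.20 with an adjusted p of 0.0338 without control replicate 4, and 0.21 with an adjusted p of 0.00882 without acetate replicate 1. The rescaled values were 0.34 (same total, adjusted p = 0.00101) and 0.37 (T cell markers, adjusted p = 0.00103).

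Added up per sample, the oxidative arm came to 65.2 ± 2.70 FPKM in the control and 74.5 ± 7.59 FPKM in the acetate group (SD, n = 5 each). Its lowest acetate sample, replicate 1, was at 62.2 FPKM within the control range of 61.4 to 68.9 FPKM, and the other 4 lay between 74.2 and 82.4 FPKM. With samples rescaled to the same FPKM total, the sums were 61.4 ± 1.17 and 79.3 ± 7.13 FPKM and did not overlap. H6pd, the dehydrogenase that runs the first steps of the oxidative arm inside the endoplasmic reticulum, did pass the test. H6pd was at 3.86, 3.90, 4.45, 3.71 and 4.85 FPKM in control and at 6.07, 7.72, 6.74, 8.69 and 6.15 FPKM in acetate replicates 1 to 5, a log2 fold change of 0.75 (SE 0.11, limma adjusted p = 0.00055). Every acetate sample lay above every control sample, acetate replicate 1 included. The ratio of H6pd to G6pdx was 0.144 ± 0.0142 in the control and 0.225 ± 0.0271 in the acetate group (SD, n = 5 each), with no overlap.

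The non-oxidative arm begins where ribulose 5-phosphate is turned into either ribose 5-phosphate or xylulose 5-phosphate. Rpia, the isomerase that forms ribose 5-phosphate (chromosome 6, 70742704 to 70769216, minus strand), was the least abundant of the 9 enzymes and had the largest log2 fold change of the 9 on the deposited scale, though that of Pgls was larger in size at the same FPKM total (0.49 against -0.43) and scaled to T cell markers (0.51 against -0.41). It was at 6.57, 5.91, 5.57, 6.04 and 6.71 FPKM in control replicates 1 to 5 and at 3.31, 4.52, 4.33, 4.08 and 3.90 FPKM in acetate replicates 1 to 5. The highest acetate sample lay below the lowest control sample. The log2 fold change was -0.60 (SE 0.09, limma adjusted p = 0.000501), and the exact two-sided permutation test gave p = 0.00794, the smallest that 5 samples against 5 allow.

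Rpe, the epimerase that forms xylulose 5-phosphate (chromosome 1, 66739990 to 66758964, plus strand), had the smallest spread of the 9 in the acetate group. It was at 21.4, 19.9, 20.5, 20.6 and 20.5 FPKM in control replicates 1 to 5 and at 16.9, 17.0, 16.35, 16.7 and 17.3 FPKM in acetate replicates 1 to 5. The groups did not overlap, and acetate replicate 1 lay in the middle of its group. The log2 fold change was -0.29 (SE 0.04, limma adjusted p = 0.000258, exact two-sided permutation p = 0.00794). It was -0.11 at the same FPKM total (adjusted p = 0.0937) and -0.08 scaled to T cell markers (adjusted p = 0.304), so the call was lost on both of those scales. The gene overlaps Kansl1l on the other strand over 558 bases, and 18.3% of the 75-base windows of the Rpe transcript are shared with it. Kansl1l was at 0.495 FPKM in the control and 0.656 FPKM in the acetate group, and the part of shared reads was not tested. In all, 2 of the 9 enzymes did not overlap between the groups, against 26.4% of all genes tested.

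Rpia and Rpe are shown by the 250 bases upstream of their RefSeq start (GRCm38.p6, read on the gene's own strand), because they were the 2 enzymes that fell. The window of Rpia is chr6:70792176-70792425 on the minus strand and that of Rpe chr1:66700581-66700830 on the plus strand. The windows of Tkt (chr14:30548881-30549130, plus strand) and G6pdx (chrX:74428881-74429130, minus strand) stand beside them as enzymes that did not fall. Capitals mark the GC box, GGGCGG on either strand, and in G6pdx also the core of an antioxidant response element, TGACNNNGC on either strand.
Rpia: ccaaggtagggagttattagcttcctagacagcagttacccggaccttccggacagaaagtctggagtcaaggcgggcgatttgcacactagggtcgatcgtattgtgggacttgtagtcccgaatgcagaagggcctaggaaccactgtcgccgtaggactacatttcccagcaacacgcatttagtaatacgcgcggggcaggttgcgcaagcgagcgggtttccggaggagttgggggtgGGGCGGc
Rpe: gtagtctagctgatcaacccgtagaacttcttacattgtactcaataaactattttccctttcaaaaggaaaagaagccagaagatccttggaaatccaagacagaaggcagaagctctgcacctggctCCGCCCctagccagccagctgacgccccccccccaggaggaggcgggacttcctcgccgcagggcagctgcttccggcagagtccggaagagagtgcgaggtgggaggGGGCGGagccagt
Tkt: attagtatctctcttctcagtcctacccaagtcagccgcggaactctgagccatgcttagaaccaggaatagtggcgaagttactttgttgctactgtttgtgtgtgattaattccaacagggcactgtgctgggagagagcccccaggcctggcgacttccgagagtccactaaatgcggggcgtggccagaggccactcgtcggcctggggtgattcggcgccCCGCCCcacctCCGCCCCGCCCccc
G6pdx: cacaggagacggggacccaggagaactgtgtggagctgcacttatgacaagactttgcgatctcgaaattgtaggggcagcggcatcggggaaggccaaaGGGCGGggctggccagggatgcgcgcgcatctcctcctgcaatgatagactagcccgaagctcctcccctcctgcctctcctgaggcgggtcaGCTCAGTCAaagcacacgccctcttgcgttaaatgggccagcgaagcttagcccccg

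A GC box, the short motif bound by Sp1-type factors, stood in the windows of 8 of the 9 enzymes, Prps2 being the exception, and in 32.7% of 32851 such windows over all RefSeq genes. The GC content of the windows ranged from 48.4% for Prps1 to 64.4% for Pgls, and most lay above the median of all windows, 52.4%. The windows of Rpia and Rpe held a GC box, as did those of Tkt and G6pdx, and its part in their levels was not tested. The antioxidant response element, through which Nrf2 acts on many NADPH-forming genes, was found in 1 of the 9 windows, that of G6pdx, and in 10.2% of all windows. CCAAT on either strand lay in 3 of 9, those of Pgd, Taldo1 and Prps1, and in 33.8% of all windows. The E-box CACGTG was found in 0 of 9 and in 6.02% of all windows. These matches describe letters in a fixed window and nothing about binding.

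Tkt, the transketolase that moves units of a pair of carbons between sugars (chromosome 14, 30270316 to 30296677, plus strand), showed the opposite picture to the isomerase and epimerase in all acetate samples but 1. Its level was 26.8, 28.2, 29.4, 28.9 and 31.3 FPKM in control and 21.8, 37.4, 35.3, 36.0 and 35.4 FPKM in acetate replicates 1 to 5. Of the 5 acetate samples, 4 lay above all controls, and acetate replicate 1, at 61.0% of the median of the others, lay below all of them. For Tkt the log2 fold change was 0.17 over all samples (SE 0.13, 95% confidence interval -0.12 to 0.47, limma adjusted p = 0.344) and 0.32 without acetate replicate 1 (SE 0.05, adjusted p = 0.000456). Rescaling gave 0.35 at the same total (adjusted p = 0.0451) and 0.37 with T cell markers (adjusted p = 0.0289).

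Taldo1, the transaldolase that carries the other exchange step (chromosome 7, 140972112 to 140982881, plus strand), was the most abundant of the 9. It was at 56.1, 56.5, 62.0, 58.2 and 61.5 FPKM in control replicates 1 to 5. In acetate replicates 1 to 5 it was at 54.1, 68.2, 65.1, 66.0 and 69.6 FPKM, again with 1 sample below and 4 above all controls. Its log2 fold change was 0.13 (SE 0.07, limma adjusted p = 0.176), and 0.19 with an adjusted p of 0.00554 without acetate replicate 1. It was 0.31 at the same total (adjusted p = 0.00294) and 0.33 with T cell markers (adjusted p = 0.00158).

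Ratios within a sample do not depend on how samples are scaled to each other. Tkt over Rpia was 4.72 ± 0.423 in the control and 8.19 ± 0.970 in the acetate group (SD, n = 5 each), and Taldo1 over Rpe was 2.86 ± 0.161 and 3.83 ± 0.358. Neither ratio overlapped between the groups: acetate replicate 1, the lowest of its group in both, had 6.59 and 3.19 against control maxima of 5.27 and 3.02. Since Rpia and Rpe by themselves did not overlap either, these ratios partly restate their fall. The sum of Tkt and Taldo1 over that of Rpia and Rpe was 3.29 ± 0.204 in the control and 4.67 ± 0.518 in the acetate group, also without overlap. Tkt over Rpe did overlap, with 1.29 in acetate replicate 1 within the control range of 1.25 to 1.53 and 2.05 to 2.21 in the other 4. Rpe over Rpia was 3.35 ± 0.228 in the control and 4.24 ± 0.568 in the acetate group, so the 2 enzymes that fell did not fall by the same share. As a sum, the non-oxidative arm was at 114.5 ± 4.13 FPKM in the control and 118.7 ± 12.8 FPKM in the acetate group. Acetate replicate 1, at 96.1 FPKM, lay below the control range of 110.5 to 119.98 FPKM and the other 4, at 121.1 to 127.1 FPKM, above it, and the difference of the means went from 4.15 to 18.4 FPKM when samples were rescaled to the same total.

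**Figure D2:**
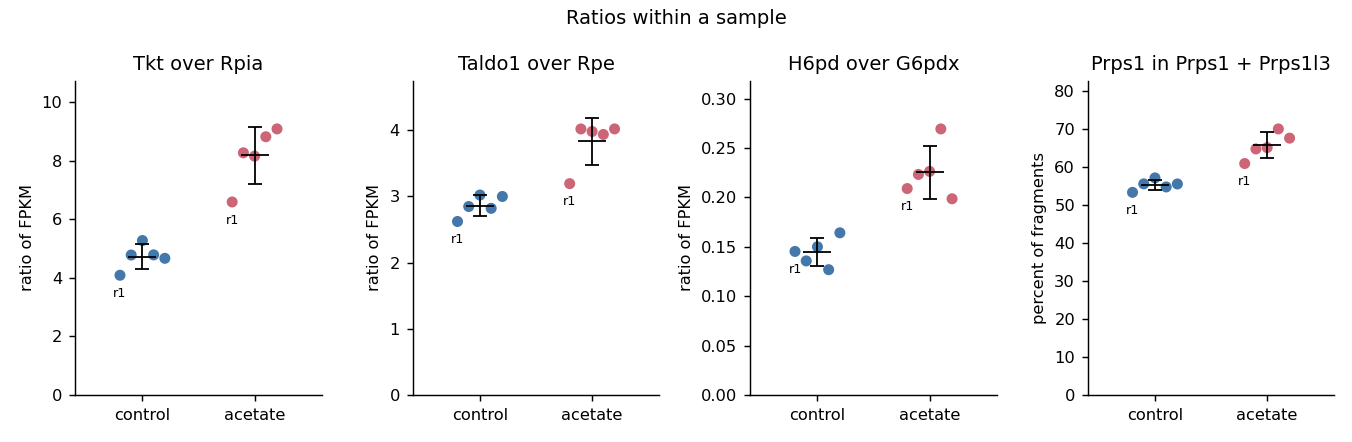
Ratios within each of the 10 samples: Tkt over Rpia, Taldo1 over Rpe and H6pd over G6pdx as ratios of FPKM, and the share of Prps1 in the fragments of Prps1 and Prps1l3 in percent; points are samples (r1 marks replicate 1), bars the mean and SD of a group of 5, and axes start at 0. All acetate samples lie above all control samples in each of the 4 panels.

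The PRPP synthetases join ribose 5-phosphate to pyrophosphate. Prps1 (chromosome X, 139357362 to 139376889, plus strand) was at 32.8, 31.2, 33.4, 29.4 and 34.7 FPKM in control and at 30.7, 33.3, 34.9, 36.6 and 34.9 FPKM in acetate replicates 1 to 5, with mixed ranges. Its log2 fold change was 0.08 (95% confidence interval -0.06 to 0.21, limma adjusted p = 0.358), but 0.25 at the same FPKM total (adjusted p = 0.0104) and 0.28 scaled to T cell markers (adjusted p = 0.00793). Prps2 (chromosome X, 166129318 to 166165745, minus strand) was at 20.1 ± 0.481 FPKM in the control and 19.7 ± 1.39 FPKM in the acetate group (SD, n = 5 each), a log2 fold change of -0.03 (95% confidence interval -0.15 to 0.09, adjusted p = 0.688). The share of Prps1 in the sum of both was 61.6% ± 1.21 in the control and 63.3% ± 1.53 in the acetate group, and these shares overlapped.

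Another PRPP synthetase gene, Prps1l3 (chromosome 12, 57277198 to 57286668, plus strand), was nearly as abundant as Prps1 and fell. Its level was 30.4 ± 2.24 FPKM in the control and 20.7 ± 1.85 FPKM in the acetate group (SD, n = 5 each), with a log2 fold change of -0.56 (SE 0.07, limma adjusted p = 0.000222) and no overlap. Prps1l3 is a near copy of Prps1, which makes the split of fragments between them uncertain. It also overlaps Mipol1 on the same strand over 9456 bases, with 6.80% of its 75-base windows shared with Mipol1 and 5.89% with Prps1, and Mipol1 was at 0.166 FPKM in the control and 0.276 FPKM in the acetate group. Over the 957 bases of their reading frames in GENCODE M21 (GRCm38), 30 bases differed, an identity of 96.9%, against 79.9% between Prps1 and Prps2. The first 120 bases of the 3 frames are shown for this likeness, with capitals where a base differs from Prps1, at 5 positions in Prps1l3 and 25 in Prps2.
Prps1: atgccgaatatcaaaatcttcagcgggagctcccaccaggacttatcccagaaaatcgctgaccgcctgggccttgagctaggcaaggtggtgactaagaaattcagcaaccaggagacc
Prps1l3: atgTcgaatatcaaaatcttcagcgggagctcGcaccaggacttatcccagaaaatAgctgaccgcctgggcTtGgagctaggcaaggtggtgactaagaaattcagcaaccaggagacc
Prps2: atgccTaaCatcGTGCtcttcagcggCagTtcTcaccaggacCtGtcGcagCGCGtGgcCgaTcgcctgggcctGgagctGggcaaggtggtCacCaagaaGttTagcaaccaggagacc

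Of the 75-base windows of the Prps1 transcript, 5.13% occur unchanged in Prps1l3, and none of those of Prps2 occur in another gene. The share of Prps1 in the fragments of Prps1 and Prps1l3 was 55.2% ± 1.38 in the control and 65.6% ± 3.41 in the acetate group (SD, n = 5 each), without overlap. Counted as one, the fragments of both genes, relative to those of the sample, were in the acetate group at 0.887 times the control mean, and the acetate samples lay below all control samples. Rescaled to the same FPKM total, a setting chosen for this sum after seeing the data, the ratio was 1.002 and the groups overlapped. Whether reads that fit both genes were assigned to one, split or dropped is not given in the sources used here.

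Of 3 rescalings of the samples, 2 moved the whole set of values. Median-ratio scaling did not: it left the log2 fold change of the median gene at -0.03, with 2614 genes higher and 3179 lower (37.0% called) and the same 2 enzymes, Rpia and Rpe, lower. With all samples rescaled to the same FPKM total, the log2 fold change of the median gene went from -0.02 to 0.16, and the calls went from 2764 higher and 2978 lower to 4918 higher and 1386 lower. On that scale the 6 enzymes called higher and 1 called lower stood against 40.0% of all genes called, 31.2% higher and 8.80% lower. Scaled to the T cell markers, with a median of 0.18 over all genes and 38.8% called, 31.7% higher and 7.08% lower, 7 enzymes were higher and 1, again Rpia, was lower. Prps2 changed sign in both, to 0.15 (adjusted p = 0.0557) and 0.17 (adjusted p = 0.037). With sample weights estimated from the data, 6 enzymes passed, 4 higher and 2 lower, against 48.3% of all genes, 23.7% higher and 24.7% lower. Leaving out replicate 1 of both groups gave the same numbers of enzymes against 44.6% of all genes, 21.9% higher and 22.7% lower. Rpia was called in 13 of 13 alternatives and in 10 of 10 fits that left out a sample, Rpe in 11 of 13 and in 10 of 10.

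**Figure D3:**
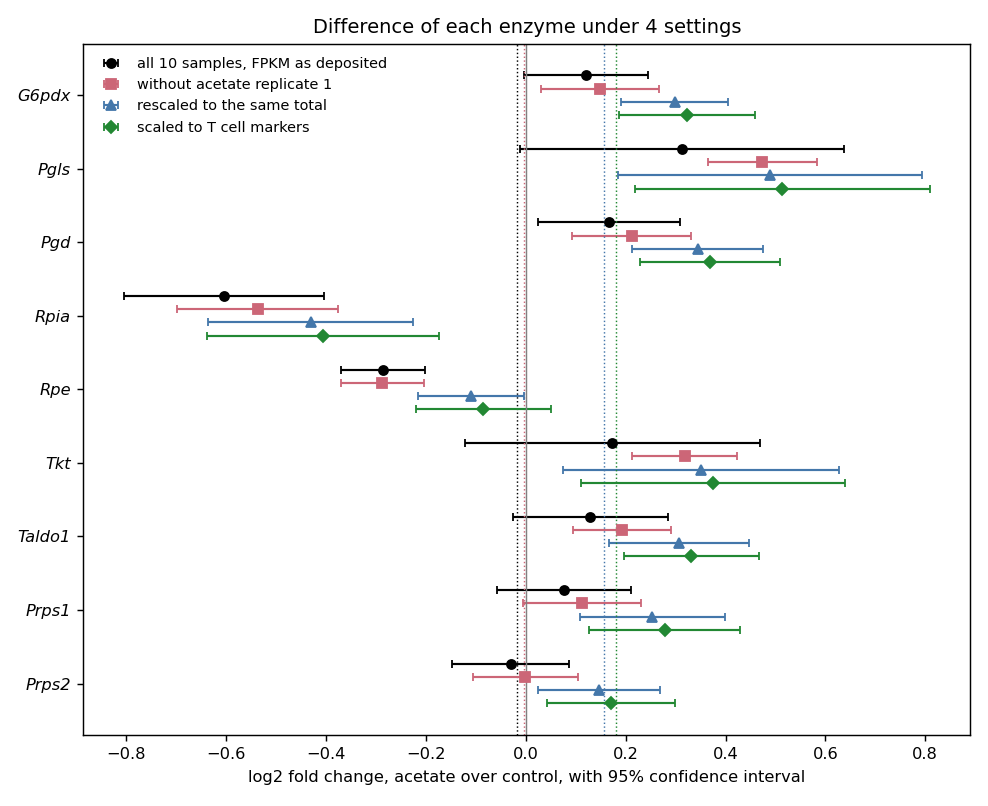
Log2 fold change of each enzyme, acetate over control, with its 95% confidence interval from limma, under 4 settings; dotted lines mark the median of all genes tested in the setting of the same colour. Rpia lies left of 0 in all 4, the interval of Rpe reaches 0 when scaled to T cell markers, and the intervals of Pgls and Tkt narrow without acetate replicate 1.

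By mean FPKM in the control, Taldo1 led with 58.9, followed by Prps1 with 32.3, Tkt with 28.9, G6pdx with 28.7, Pgd with 21.5, Rpe with 20.6, Prps2 with 20.1, Pgls with 14.9 and Rpia with 6.16. The mean level of Taldo1 was 9.56 times that of Rpia in the control and 16.03 times in the acetate group. In the control, the ranges of neighbours overlapped between Prps1 and Tkt, Tkt and G6pdx, Pgd and Rpe, and Rpe and Prps2. Within samples, Prps1 still lay above Tkt in every control sample, while the order of the other pairs varied. In the acetate group Rpe, at 17.3 FPKM or below, no longer reached Pgd, at 21.3 FPKM or above. Rpe also lay below every acetate sample of Prps2, which began at 18.1 FPKM, and Pgls came to overlap Prps2.

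Genes next to the pathway were taken from a list of 15 relatives, of which 11 could be tested, 2 were higher and 3 were lower (3 and 2 at the same FPKM total and scaled to T cell markers, 2 and 4 with median-ratio scaling). Of all genes 17.6% were higher and 19.0% lower, against 31.2% and 8.80% at the same total and 31.7% and 7.08% scaled to T cell markers. With median-ratio scaling 2614 of 15676 genes were higher and 3179 lower. Beside H6pd, Pgm2, a phosphopentomutase that links ribose 1-phosphate to the pathway, was higher (log2 fold change 0.26, SE 0.09, limma adjusted p = 0.0363), although the call held in only 4 of 10 fits that left out a sample, with adjusted p up to 0.0849. Rbks, the ribokinase that feeds free ribose into the pathway, fell from 5.39 ± 0.489 to 3.46 ± 0.448 FPKM (log2 fold change -0.63, SE 0.10, limma adjusted p = 0.000603) with no overlap. It rested on 72 to 151 fragments per sample. Idnk, the gluconokinase that feeds gluconate into the oxidative arm, was lower with 14.1 ± 0.958 and 11.2 ± 2.49 FPKM (log2 fold change -0.36, adjusted p = 0.0451). Its call was lost in 9 of 10 fits that left out a sample, at the same total and scaled to T cell markers, and kept with median-ratio scaling (adjusted p = 0.0358), and without acetate replicate 1, which was high at 15.4 FPKM, the value was -0.47 (adjusted p = 0.000609).

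The other 6 relatives tested did not pass. They were Shpk, Dera, Tigar, Pgm1 and the PRPP synthetase-associated Prpsap1 and Prpsap2, with log2 fold changes between -0.22 and 0.39. Tktl1 was under the filter, and G6pd2, Tktl2 and Prps1l1 were listed at 0 in every sample. Without acetate replicate 1, 8 of the 11 relatives passed, 3 higher and 5 lower, where 21.6% of all genes were higher and 22.7% lower.

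Of a list of other genes that form NADPH or its precursor NADP+, 8 were tested, 4 were higher and 1 was lower, where 17.6% of all genes were higher and 19.0% lower. One of the 4, the NAD kinase Nadk, kept its call in 2 of 10 fits that left out a sample (log2 fold change 0.11, limma adjusted p = 0.0479). The malic enzyme Me1 was at 0.315 ± 0.0632 FPKM in the control and 1.68 ± 0.606 FPKM in the acetate group (SD, n = 5 each, log2 fold change 2.06, limma adjusted p = 0.000118), and it passed the filter on low values only through the acetate group, where it is high. The isocitrate dehydrogenase Idh1 was at 0.919 ± 0.213 and 2.12 ± 0.594 FPKM (log2 fold change 1.10, adjusted p = 0.00226), so both levels were far below those of G6pdx and Pgd. Idh2, its mitochondrial relative, named here after its values were seen, was at 11.2 ± 0.664 and 16.8 ± 1.66 FPKM (log2 fold change 0.58, adjusted p = 0.000179). Mthfd2, the mitochondrial folate enzyme, fell from 65.0 ± 4.64 to 45.9 ± 4.25 FPKM (log2 fold change -0.50, adjusted p = 0.000473). Among 7 genes that spend NADPH, 3 were higher and 1 was lower, where 17.6% of all genes were higher and 19.0% lower. At the same total 4 were higher and 0 lower, beside 31.2% and 8.80% of all genes. Scaled to T cell markers 3 were higher and 0 lower, beside 31.7% and 7.08% of all genes. The biliverdin reductase Blvrb (log2 fold change 1.22, adjusted p = 0.000881) and the thioredoxin reductase Txnrd3 (0.62, adjusted p = 0.017) were higher, and Txnrd2, at -0.27 with an adjusted p of 0.0294, lost its call at the same total and scaled to T cell markers and held it in 4 of 10 fits that left out a sample.

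PRPP is used by enzymes of nucleotide and NAD synthesis, of which 7 were tested, 1 was higher and 2 were lower, where 17.6% of all genes were higher and 19.0% lower. With median-ratio scaling 1 was higher and 4 were lower, where 2614 of 15676 genes were higher and 3179 lower. It was again 1 and 2 at the same FPKM total, beside 31.2% and 8.80% of all genes, and scaled to T cell markers, beside 31.7% and 7.08%. Nampt, the rate-limiting enzyme of NAD salvage, fell from 25.2 ± 1.99 to 15.0 ± 1.07 FPKM (log2 fold change -0.74, limma adjusted p = 3.26e-05), and the purine salvage enzyme Hprt fell from a mean of 156.3 to 109.7 FPKM (-0.52, SE 0.10, adjusted p = 0.00186). Qprt, of NAD synthesis from tryptophan, was at 1.92 ± 0.427 and 2.90 ± 0.669 FPKM (0.57, adjusted p = 0.0291), and its call held in 6 of 10 fits that left out a sample. A list of glycolysis genes from the hexokinases to Gapdh, called the hexose phosphate genes here, spans the point where hexose phosphates can enter the pathway. Its genes Aldoa, Tpi1 and Gapdh act below that point. Of this list 9 genes were tested, 1 was higher and 6, Tpi1 among them, were lower, against 17.6% and 19.0% of all genes. The phosphofructokinase subunits Pfkp (-0.73, adjusted p = 1.2e-05) and Pfkl (-0.65, adjusted p = 1.21e-05) fell, while the remaining subunit Pfkm was higher (0.39, adjusted p = 0.00113). Under all 3 rescalings Nampt, Hprt, Pfkp and Pfkl stayed lower and Qprt and Pfkm higher, each with an adjusted p under 0.05. On the deposited scale the median log2 fold changes of these lists were -0.09 for the relatives, 0.01 for the NADPH sources, 0.01 for the NADPH users, -0.20 for the PRPP users and -0.51 for the hexose phosphate genes, beside 0.12 for the 9 enzymes and -0.02 for all genes. At the same FPKM total they were 0.08, 0.19, 0.19, -0.02 and -0.34 in that order, beside 0.30 for the 9 enzymes and 0.16 for all genes.

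**Figure D4:**
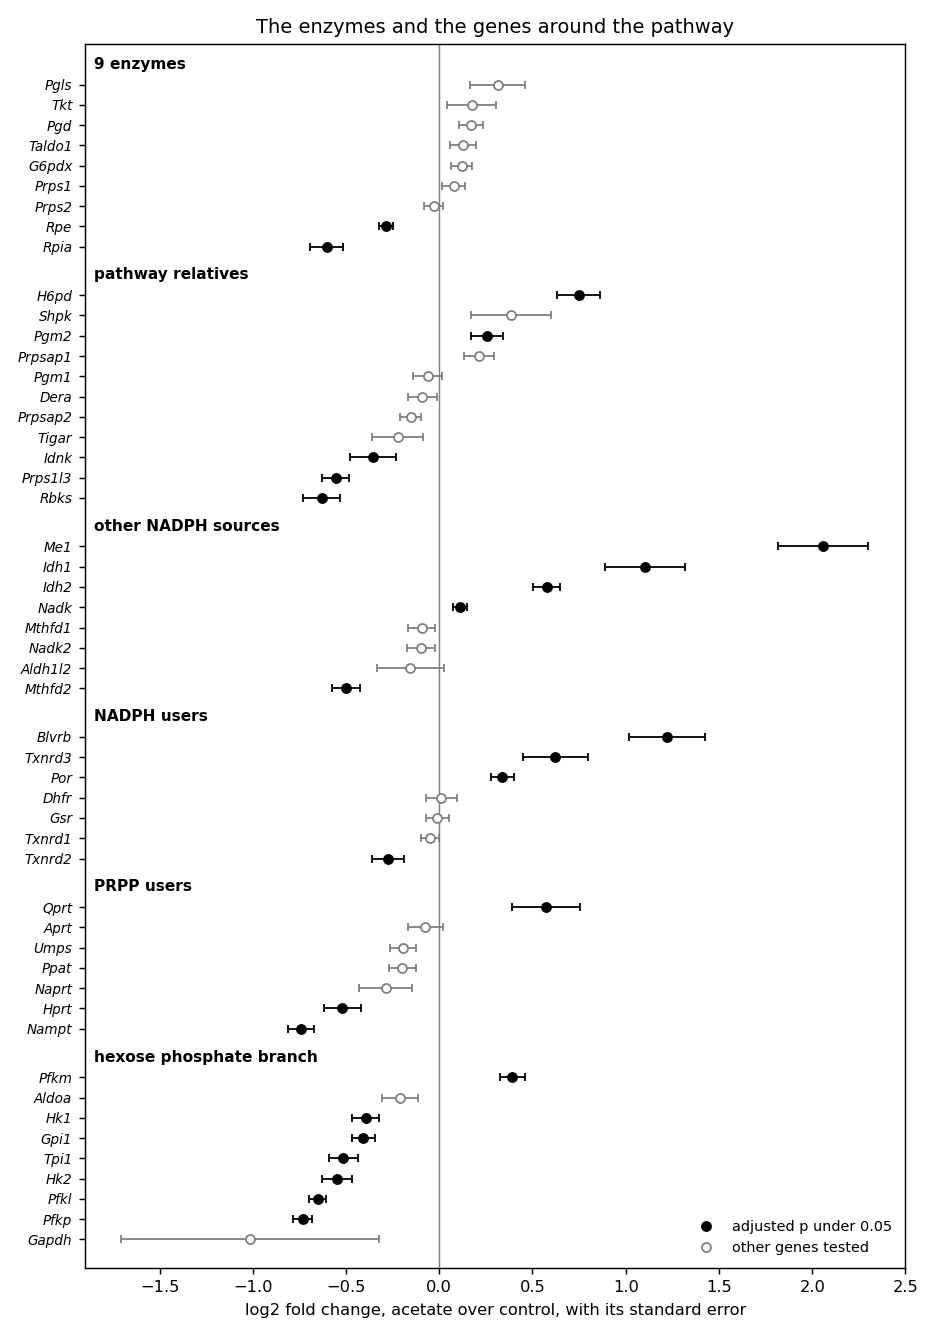
Log2 fold change, acetate over control, with its standard error for the 9 enzymes and the tested genes of 5 lists around the pathway; filled points have a limma adjusted p under 0.05. Among the 9 enzymes only Rpe and Rpia are filled. Of the 9 genes under hexose phosphate branch, which include Aldoa, Tpi1 and Gapdh, 6 are filled on the left of 0.

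Each enzyme was also set beside the protein-coding genes that varied most like it. The measure was Pearson's r of deviations from the group means over the 10 samples, which share their libraries, among 7053 candidates whose mean reached 5 FPKM. Pgls was most like C1qbp (r = 0.99) and Ppa1 (0.98), Tkt like Ppm1g (0.99) and Fmc1 (0.99), and Taldo1 like Ddb1 (0.98) and Sit1 (0.97). Rpia was most like Clptm1 (0.96) and Zdhhc12 (0.95), and Rpe like Padi2 (0.95) and Ubqln2 (0.90). G6pdx was most like Eif3l (0.94) and Parp10 (0.93), Pgd like Pnpla2 (0.98) and S100a1 (0.96), Prps1 like Asap1 (0.94) and Prep (0.93), and Prps2 like Cd44 (0.97) and Rb1 (0.95). These values lean on acetate replicate 1 for some genes: without it, r of Pgls with Ppa1 was 0.72, and that of Tkt with Fmc1 was 0.86.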

How the data were processed

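RNA sequencing of 10 samples, 5 control and 5 acetate, was described from 1 table in which the authors deposited FPKM for 57825 genes, with gene length and position as other columns. The submitters' processing notes name fastp, HISAT2 2.0.5, StringTie 1.3.3b and featureCounts 1.5.0-p3. The genome build, the strand setting and the treatment of reads that map more than once are not given in the sources used here. The listed positions are not those of GRCm38.p6 (0 of 9 enzymes match RefSeq), so sequences are credited to RefSeq or GENCODE with their build.

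Each gene's FPKM times its length were whole multiples of 1 step in 100% of values (within 0.1), which gives the fragments. The 15710 genes whose mean reached 0.5 FPKM were compared in R 4.3.3 with limma 3.58.1 (trend, robust) on log2(FPKM + 0.1), a scale that understates changes of low genes, and passed at a threshold of 0.05 on the p adjusted by Benjamini and Hochberg. Single values were compared by an exact two-sided permutation test. This step was tested on simulated data. It missed its first criterion through genes of few fragments, and the criterion was then set for genes with at least 100 fragments, a level that Rbks does not reach in every sample. FPKM being no counts, no count model was the main test, and voom on the fragments was an alternative. Other alternatives were pseudocounts of 1 and 0.01, no filter, a minimum mean of 5 FPKM, protein-coding genes only, 3 rescalings (same total, median-ratio, T cell markers), sample weights, limma with neither trend nor robust moderation, a replicate block, and leaving out samples.

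The 9 enzymes and all lists were chosen with earlier results of these data known. Named were all 9 enzymes, every called relative, and for each enzyme the 2 genes most like it. Of each other list around the pathway, the 2 higher and 2 lower called genes with the largest log2 fold change were named. Idh2 and Nadk were named beyond this rule. No molecular identifiers are named, so fragments are not independent molecules. Python 3.11.15 and matplotlib 3.10.9 were used for the rest.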

Additional observations from a re-analysis of the deposited data

Results flagged for a closer look

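In a group of 5, a sample was set apart when its gap to the nearest other sample, divided by the range of the group, exceeded 0.71, and chance sets apart about 1 in 20 groups. Of 32 groups checked, 6 had such a sample, against 1.6 given by chance, though these groups share samples and are not independent. In 5 of them it was acetate replicate 1, the lowest of its group: Tkt with a gap of 0.894 of the range, Pgls with 0.817, Taldo1 with 0.735, the sum of the 9 enzymes with 0.794, and the ratio of Tkt and Taldo1 to Rpia and Rpe with 0.92. That sample had a sum of 207.1 FPKM against 250.7 to 262.0 FPKM in the other 4, and a ratio of 3.75 against 4.86 to 4.95. The remaining one was control replicate 4, the highest of its group for Pgd with 0.727 of the range. The cause was not tested.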

How the results depend on the processing

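Of the gene counts and enzyme counts under other settings, 40 stayed within 1.5 times the reported count. With a mean of at least 5 FPKM, 3733 genes passed in place of 5742. The number of enzymes called was 2 in the report (36.5% of all genes), 7 after rescaling to the same total (40.0%) and 8 with T cell marker scaling (38.8%). The share of all genes called higher was 17.6%, 31.2% and 31.7% in these fits. It was 6 enzymes with sample weights (48.3% of all genes, acetate replicate 1 having the lowest weight, 0.177) and 6 without replicate 1 of both groups (44.6%). Leaving out 1 sample at a time gave 4924 to 6930 genes and 2 to 7 enzymes, the most of both without acetate replicate 1. With protein-coding genes alone Pgd passed too (log2 fold change 0.17, limma adjusted p = 0.0499). Prps2 changed sign, to 0.15 (same total) and 0.17 (T cell markers). For the 9 enzymes and Prps1l3, 198 other values kept their direction and side of the threshold, 28 gained a call and 2, both of Rpe, lost one. Of the counts of called list genes, 100 stayed within 1.5 times and 15 moved, as did the 4 sums. Some other list genes lost calls too. Elsewhere the cause of a change was not tested.

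Whether the replicate numbers pair the samples is not given in the sources used here. Deviations of same-numbered samples correlated at -0.03 to 0.07, and 4 of 10 samples correlated best with their own number. These correlations over all genes cannot settle it, since a shared mouse or batch need not show in them. A fit with replicate block gave other counts: 5399 genes (34.4%) and 3 enzymes passed, Pgd joining Rpia and Rpe (log2 fold change 0.17, limma adjusted p = 0.0397).

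Values of 5 samples a group do not show that an enzyme that missed the threshold was unchanged: the 95% confidence interval of Tkt allowed a log2 fold change up to 0.47 and that of Pgls up to 0.64.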
